A study of Mus musculus with 3 samples.

Results

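The 10 genes described here encode the receptors, enzymes, cochaperones, early target genes and peptide signals of glucocorticoid action and of the stress axis: Nr3c1, Nr3c2, Hsd11b1, Hsd11b2, Fkbp4, Fkbp5, Sgk1, Tsc22d3, Crh and Crhr1. They were taken by gene symbol from a table of 39377 genes, and all 10 had a row. Of these, 9 were above 0 and also had a mean of at least 1 FPKM (FPKM scales fragments by transcript length in kilobases and by 1000000 mapped fragments), whereas Hsd11b2 was listed at 0. The samples were 3 libraries of total RNA from the hippocampus, a tissue of mixed cell types, of C57BL/6 mice of wild-type genotype at postnatal day 14, and they formed 1 group, here called libraries 1, 2 and 3. The labels name no treatment, allele or stressor and do not tell if separate animals gave the libraries. The p-values here thus rest on a spread between samples that may be technical only. Genes were therefore compared with each other inside each library, and the libraries were compared by their values, without a test. The SEs, intervals and p-values come from a fit that draws each gene's spread, in part or wholly, toward that of all genes. They are thus not those of a gene's own 3 values, and can be narrower or wider.

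Corticosterone, the main glucocorticoid of mice, is released from the adrenal gland at the end of a chain that starts with corticotropin-releasing hormone. In neurons it enters the cell and binds the mineralocorticoid receptor with high affinity and the glucocorticoid receptor with lower affinity, so that the first is largely occupied at rest and the second fills as hormone rises. The receptors wait in a complex with heat shock proteins and with immunophilin cochaperones, move to the nucleus with hormone bound, and act on genes that carry glucocorticoid response elements. The hippocampus is known for carrying both receptors together, and young rodents are known for a period in which adrenal responses to stress are weak.

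Depth, read from the step size of low FPKM values, was about 3710000, 4160000 and 5920000 fragments in libraries 1, 2 and 3, and 3 fragments on a transcript of 2 kb corresponded to 0.465, 0.41 and 0.29 FPKM after 260, 240 and 250 bases were taken off its length, the numbers at which low values came out as whole fragments. All 7 markers of hippocampal principal neurons had a mean of at least 1 FPKM, and their summed level was 248, 213 and 222 FPKM. Markers of the hypothalamus summed to 1.69, 1.49 and 0.51 FPKM, with Sim1 listed at 0. Choroid plexus markers were uneven: all 5 were lowest in library 1, and their sum was 398, 1080 and 1310 FPKM. Values after ± are SDs (n = 3 libraries), and FPKM set side by side for different genes also carry differences in length, GC content and mappability of their transcripts. In a bulk tissue, fewer cells of a type and less RNA per cell cannot be told apart.

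**Figure D1:**
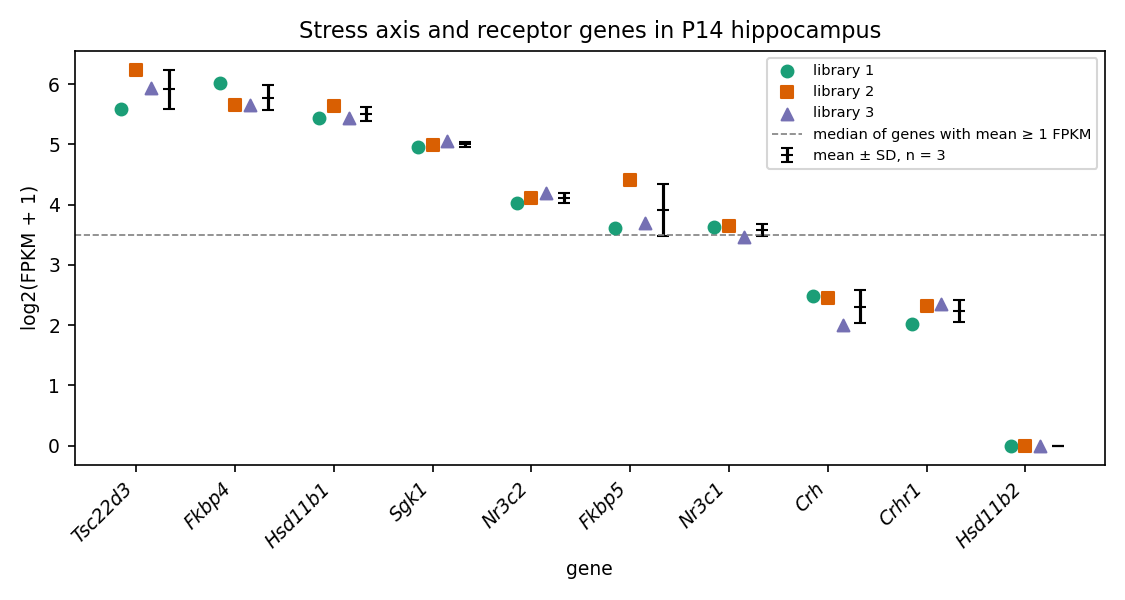
Level of each of the 10 genes on the log2(FPKM + 1) scale (vertical axis), by gene in order of mean (horizontal axis), with 1 point per library and the mean ± SD over 3 libraries beside them. The dashed line is the median of all genes with a mean of at least 1 FPKM; Tsc22d3, Fkbp4 and Hsd11b1 stand highest, Crh and Crhr1 low, and Hsd11b2 at 0.

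Both corticosteroid receptor genes were expressed at intermediate levels, with the mineralocorticoid receptor gene slightly above the glucocorticoid receptor gene in every library. Nr3c1, the glucocorticoid receptor gene (Entrez 14815; in GRCm38 chromosome 18, 39410545 to 39519421, minus strand), had 11.35, 11.53 and 9.98 FPKM in libraries 1, 2 and 3. Nr3c2, the mineralocorticoid receptor gene (Entrez 110784, plus strand of chromosome 8 from 76898083 to 77245012), had 15.25, 16.22 and 17.35 FPKM. The values of the 2 genes did not overlap, and library 3 held the lowest value of Nr3c1 and the highest of Nr3c2.

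In FPKM, Nr3c1 was 0.744, 0.711 and 0.575 times Nr3c2, a mean ratio of 0.677 ± 0.0895 (SD, n = 3). On the log2(FPKM + 1) scale Nr3c1 lay 0.53 log2 units below Nr3c2, that is a difference of -0.53 (SE 0.12, 95% interval -0.83 to -0.23), with the same sign in 3 of 3 libraries. This was not called beyond 2-fold (limma's treat test with a 2-fold null, limma adjusted p = 1 by Benjamini-Hochberg over all genes), while 35.1% of all genes were called lower than Nr3c2. Against a null of no difference the same fit gave an adjusted p of 0.0065, a size that transcript length and mappability can also give. Among 19046 genes above 0 in at least 1 library, Nr3c2 ranked 5088 and Nr3c1 6499, at percentiles 73.3 and 65.9. Gm10649, annotated as a bidirectional promoter long noncoding RNA on the opposite strand, overlaps Nr3c2 and had a mean of 2.04 FPKM. Whether counting used strand is not given in the sources used here.

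Closest to Nr3c1 in level, by the largest absolute difference of log2(FPKM + 1) over the 3 libraries, were Hivep3 (0.0172), Slc38a1 (0.02) and Inpp4a (0.0279). Hivep3, for example, had 11.44, 11.59 and 9.85 FPKM. This likeness rests on 3 libraries of 1 group and describes level alone.

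Of the enzymes that set hormone levels inside the cell, the gene of the activating one was well expressed and that of the inactivating one was listed at 0. Hsd11b1, whose product regenerates active corticosterone from its inert keto form (Entrez 15483, minus strand of chromosome 1 from 193221640 to 193264045), had 42.12, 48.96 and 42.46 FPKM. Hsd11b2, whose product inactivates corticosterone and shields the mineralocorticoid receptor in kidney (Entrez 15484, plus strand of chromosome 8 from 105518746 to 105523988), was listed at 0 in all 3 libraries. An exact 0 can be a failed estimate, so no ratio or test was formed between the 2 genes.

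Hsd11b1 stood 1.93 log2 units above Nr3c1 on the log2(FPKM + 1) scale, and above it in 3 of 3 libraries (SE 0.114, limma adjusted p = 3.39e-04). Its transcript was 29.2, 22.9 and 27.8 times that of H6pd in FPKM, the gene of the enzyme that supplies its cofactor in the endoplasmic reticulum, named here after its values were seen. H6pd had 1.44, 2.14 and 1.53 FPKM, so both genes were highest in library 2. Lamb3, a coding gene on the opposite strand that overlaps Hsd11b1, had a mean of 0.713 FPKM.

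The FKBP cochaperones, which compete for the receptor complex, stood far apart. Fkbp5, which lowers the hormone affinity of the receptor and is itself induced by glucocorticoids (Entrez 14229, minus strand of chromosome 17 from 28398753 to 28486149), had 11.29, 20.17 and 12 FPKM. Fkbp4, which couples the hormone-bound receptor to nuclear transport (Entrez 14228, minus strand of chromosome 6 from 128430103 to 128438656), had 63.95, 49.49 and 49.39 FPKM. The genes were extreme in different libraries: Fkbp5 was high in library 2 alone and Fkbp4 high in library 1 alone.

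The ratio of Fkbp5 to Fkbp4 in FPKM was 0.177, 0.408 and 0.243, a mean of 0.276 ± 0.119 (SD, n = 3). Fkbp5 was called lower than Fkbp4 by more than 2-fold, with a log2 difference of -1.87 (SE 0.207, 95% interval -2.30 to -1.44, limma adjusted p = 2.66e-04, lower in 3 of 3 libraries). Of all genes 68.4% were called lower than Fkbp4, so the call by itself does not set Fkbp5 apart. The 3 ratios spread more widely than the 95% interval, which rests in part on the spread of all genes. Leaving out any library kept the call.

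The early target genes Tsc22d3 and Sgk1 were both abundant, but they differed in how even they were. Tsc22d3, which encodes the glucocorticoid-induced leucine zipper protein (Entrez 14605, minus strand of chromosome X from 140539528 to 140600522), had 46.94, 74.11 and 60.36 FPKM. Sgk1, the gene of a serum- and glucocorticoid-regulated kinase that acts on ion channels and carriers (Entrez 20393, plus strand of chromosome 10 from 21882184 to 21999903), had 30.21, 30.68 and 32.12 FPKM. Tsc22d3 was lowest in library 1 and highest in library 2, whereas the 3 values of Sgk1 lay within 1.06 times of each other.

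Sgk1 was 0.644, 0.414 and 0.532 times Tsc22d3 in FPKM. The log2 difference of -0.92 (SE 0.272, 95% interval -1.45 to -0.39, 3 of 3 libraries) was not called beyond 2-fold (limma adjusted p = 0.74). Of all genes 68.5% were called lower than Tsc22d3. Against a null of no difference the limma adjusted p was 8.71e-04, with a spread pooled over all genes. Myelinating oligodendrocytes are known to express Sgk1, and their 6 markers summed to 1040, 1080 and 1180 FPKM in libraries 1, 2 and 3, with 5 of 6 highest in library 3. Their part in the level of Sgk1 was not tested.

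Promoter windows, from 250 bases before to 50 bases after an annotated start site, were read from RefSeq (GRCm38.p6) for 7 of the 10 genes, 14 windows in all. Of the 3 inducible genes 1 window each is shown: for Sgk1, which has 6 windows, the one with the full element, for Tsc22d3, which has 3, the only one with a match, and for Fkbp5 its only window. Windows were searched on both strands for the full response element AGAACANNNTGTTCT, its core ACANNNTGT, which lies inside the full element, and the half-site TGTTCT, which overlaps it. The full element was in 3 of 32851 windows, or 0.00913%, and 1 of these belonged to Sgk1, at the fifth of its 6 listed start sites. That match begins 189 bases before the start site. Of the other Sgk1 windows, 3 held a core or a half-site and 2 held no match, and the other 2 windows of Tsc22d3 held none. The core was in 6.85% and the half-site in 19% of all windows. In the sequences, given 5′ to 3′ on the strand of the gene, capitals mark matches to any of the 3 motifs, and Fkbp5 has none in its window.
Sgk1, the fifth start site, chr10:21993640-21993939, plus strand: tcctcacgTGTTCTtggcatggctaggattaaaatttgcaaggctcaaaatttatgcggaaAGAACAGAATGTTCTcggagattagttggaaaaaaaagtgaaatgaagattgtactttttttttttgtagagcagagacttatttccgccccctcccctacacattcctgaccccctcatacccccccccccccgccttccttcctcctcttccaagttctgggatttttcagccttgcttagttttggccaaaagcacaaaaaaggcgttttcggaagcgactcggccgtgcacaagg
Tsc22d3, the second listed start site, chrX:140600473-140600772, minus strand: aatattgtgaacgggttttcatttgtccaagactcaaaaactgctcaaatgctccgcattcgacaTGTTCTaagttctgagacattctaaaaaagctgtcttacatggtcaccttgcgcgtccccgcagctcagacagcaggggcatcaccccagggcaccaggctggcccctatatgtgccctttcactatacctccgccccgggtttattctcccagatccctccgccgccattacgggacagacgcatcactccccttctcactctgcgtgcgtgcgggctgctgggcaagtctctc
Fkbp5, chr17:28486100-28486399, minus strand: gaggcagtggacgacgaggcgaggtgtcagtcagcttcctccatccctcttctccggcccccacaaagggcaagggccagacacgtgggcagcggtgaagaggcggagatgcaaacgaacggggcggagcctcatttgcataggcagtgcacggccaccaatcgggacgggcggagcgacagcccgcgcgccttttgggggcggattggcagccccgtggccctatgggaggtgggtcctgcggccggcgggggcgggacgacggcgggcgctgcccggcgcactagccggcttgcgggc

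The windows of Hsd11b1, Fkbp4, Nr3c2 and Crhr1 held no match to these 3 motifs. A match is a stretch of letters and not a measured binding site, elements outside the window were not searched, and which start sites were used was not measured.

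Crh and its receptor gene Crhr1 were the lowest of the genes above 0. Crh, the gene of corticotropin-releasing hormone, which scattered hippocampal interneurons make (Entrez 12918, minus strand of chromosome 3 from 19693401 to 19695396), had 4.57, 4.47 and 3.00 FPKM. Crhr1, its main receptor gene in forebrain (Entrez 12921, plus strand of chromosome 11 from 104130463 to 104175523), had 3.05, 3.99 and 4.11 FPKM. Crh was above Crhr1 in libraries 1 and 2 and below it in library 3, so the ranges overlapped.

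Crh was 1.5, 1.12 and 0.73 times Crhr1 in FPKM, and the log2 difference of 0.08 (SE 0.189, 95% interval -0.32 to 0.48) was not called (limma adjusted p = 1). Its sign turned to -0.11 without library 1. Of all genes 47.3% were called higher than Crhr1. Crh rested on about 18 to 20 fragments and Crhr1 on about 25 to 54 fragments per library, so a small difference was not detectable at this depth. Crhbp, which encodes a protein that binds and neutralises the hormone, was at 24.59, 25.73 and 15.66 FPKM, 5.38, 5.76 and 5.22 times Crh. Both Crhbp and Crh were lowest in library 3. The 7 interneuron markers summed to 817, 949 and 777 FPKM in libraries 1, 2 and 3. Most of this sum was Sst, at 674.46, 807.65 and 654.22 FPKM. Of the 7, 4 were highest in library 2 and 3 in library 1. Gad1 and Sst were lowest in library 3, Gad2, Slc32a1 and Reln in library 2, and Pvalb and Vip in library 1. The part of interneurons in the level of Crh was not tested.

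Set against Nr3c1, 4 of the 8 other genes that could be tested were called higher by more than 2-fold, 1 was called lower and 3 were not called. Over all 13336 genes tested against Nr3c1, 24.4% were higher and 23.6% lower, and the median log2 difference was 0.98 for the 8 genes and -0.08 for all genes. The higher genes were Tsc22d3 at 2.34 log2 units (SE 0.155, limma adjusted p = 2.57e-04), Fkbp4 at 2.20 (SE 0.125, adjusted p = 1.64e-04), Hsd11b1 and Sgk1, each in 3 of 3 libraries. Sgk1 stood 1.42 log2 units above Nr3c1 (SE 0.119, limma adjusted p = 0.0132), and this call was lost without library 3 (log2 difference 1.34, adjusted p = 0.0538). Crhr1 was the lower one, with a log2 difference of -1.35 (SE 0.136, limma adjusted p = 0.0449), a call lost without library 1 (adjusted p = 0.254) or library 2 (adjusted p = 0.114).

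Nr3c2, Fkbp5 and Crh were not called against Nr3c1. Crh lay close to the threshold, with a log2 difference of -1.27 (SE 0.121, limma adjusted p = 0.0692), and it passed with a pseudocount of 0.5 (adjusted p = 0.0361) or 0.1 (adjusted p = 0.0256). Fkbp5 was above Nr3c1 in 2 of 3 libraries, with a log2 difference of 0.33 (SE 0.167, 95% interval -0.08 to 0.74).

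**Figure D2:**
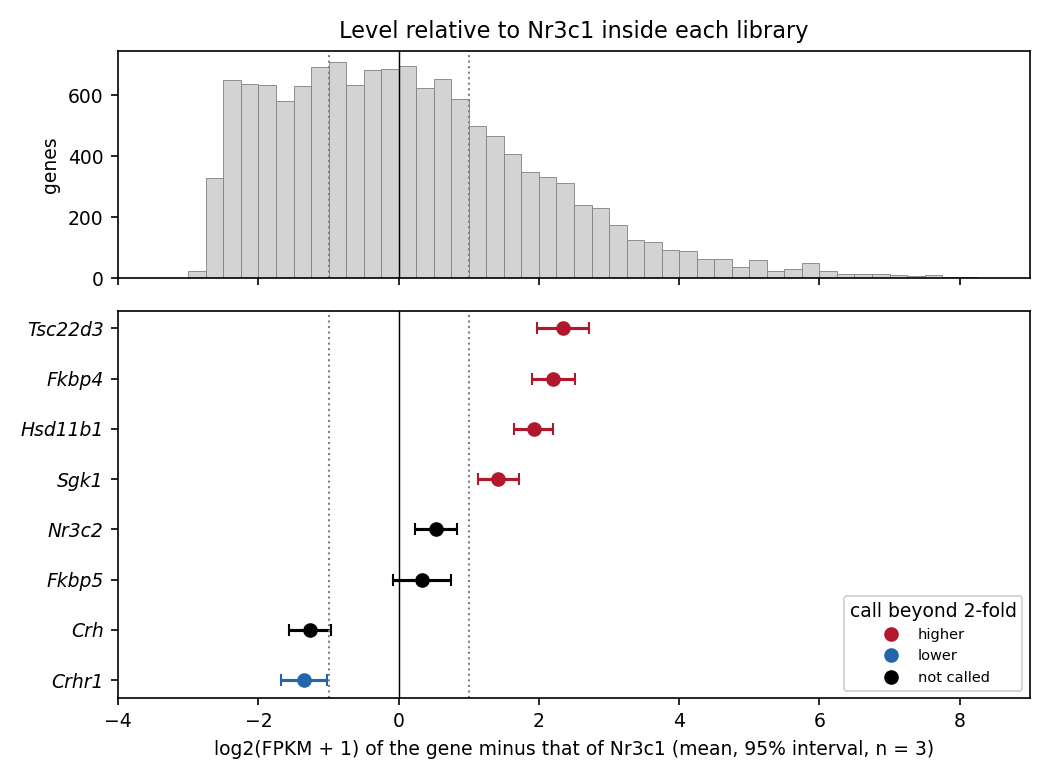
Upper panel: number of genes (vertical axis) by the difference of their log2(FPKM + 1) from that of Nr3c1 (horizontal axis), for 13336 genes. Lower panel: the same difference for the 8 other genes that were tested, as the mean with its 95% interval over 3 libraries, coloured by the call; dotted lines mark 2-fold. Tsc22d3, Fkbp4, Hsd11b1 and Sgk1 lie to the right of 2-fold and Crhr1 to the left.

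The spread between libraries differed from gene to gene. Over the 9 genes the coefficient of variation had a median of 15.4% and ran from 3.21% for Sgk1 to 34.1% for Fkbp5, and the median SD on the log2(FPKM + 1) scale was 0.185, against 0.175 over all 13337 genes tested. The receptor genes had a low spread, at 7.74% for Nr3c1 and 6.46% for Nr3c2, as did Hsd11b1 at 8.66%. Among all genes tested, the SD of Sgk1 lay at percentile 5.23, that of Tsc22d3 at percentile 80.3 and that of Fkbp5 at percentile 89.

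Counting error was estimated from fragment numbers, with the shortest and the longest coding transcript of each gene in GENCODE's basic set. For 4 of the 9 genes the observed coefficient of variation was above both estimates. These were Fkbp5 (34.1%, counting error 6.79% to 12%), Tsc22d3 (22.5%, 4.78% to 7.49%), Fkbp4 (15.4%, 4.60%) and Hsd11b1 (8.66%, 6.09% to 7.12%). The margin of Hsd11b1 was small, and a spread over 3 libraries is itself uncertain, so this does not show a difference between libraries for it. For Crh the spread of 21.9% lay under its counting error of 22.9%, and for Crhr1 the spread of 15.6% under 16.9%, so their differences between libraries were not detectable at this depth. The same held for Sgk1, whose spread of 3.21% lay under both of its estimates (5.08% to 5.77%). The spread of Nr3c1 and that of Nr3c2 lay within their estimates, 5.76% to 9.82% and 4.98% to 7.22%. Leaving out the most extreme of 3 values always lowers their SD, so a fall does not show that 1 library drives the spread. It was 4.31% for Fkbp5 without library 2, 0.143% for Fkbp4 without library 1, 0.568% for Hsd11b1 without library 2, and 14.5% for Tsc22d3 without library 1. Leaving out either other library gave 35.9% or 39.9% for Fkbp5, 18.2% or 18% for Fkbp4, 10.1% or 10.6% for Hsd11b1, and 17.7% or 31.7% for Tsc22d3. Likewise the spread was 1.11% for Nr3c1, 1.09% for Sgk1 and 1.56% for Crh without library 3, and 2.10% for Crhr1 without library 1. With another library left out it reached 10.2% for Nr3c1, 4.33% for Sgk1, 29.3% for Crh and 20.9% for Crhr1.

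**Figure D3:**
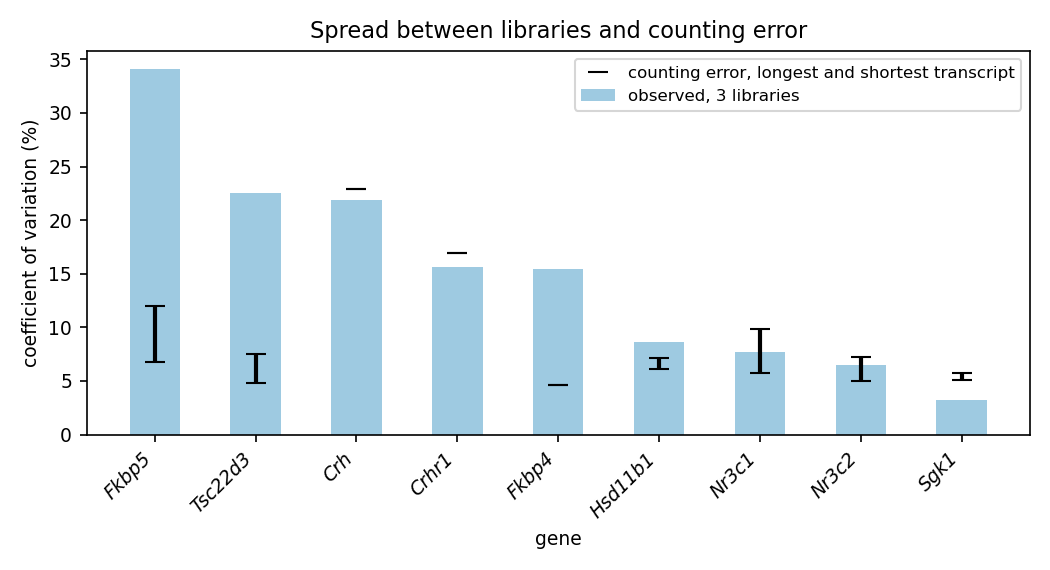
Coefficient of variation in percent (vertical axis) by gene (horizontal axis): bars give the spread observed over 3 libraries, and black ticks the spread expected from counting error for the longest and shortest coding transcript. Fkbp5, Tsc22d3 and Fkbp4 stand well above their counting error, while Crh, Crhr1 and Sgk1 lie under it.

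Library 2 held the highest value of 4 of the 9 genes, namely Nr3c1, Hsd11b1, Fkbp5 and Tsc22d3, where 32.5% of all genes tested were highest in that library. Fkbp5 and Tsc22d3 were there at least 1.2 times both other libraries, as were 11.5% of all genes, a fold chosen after the values were seen. Fkbp5 was 1.73 times and Tsc22d3 1.38 times the mean of the other libraries. Library 3 was highest for 3 of the 9, Nr3c2, Sgk1 and Crhr1, and for 30.9% of all genes. Library 1 was lowest for 6 of the 9 genes, and for 32.6% of all genes. Library 1 was highest for 2 of the 9, Fkbp4 and Crh, and for 36.3% of all genes. Fkbp4 was there at 1.29 times the mean of the others and at least 1.2 times both other libraries, as were 12.6% of all genes. These counts include the orders of Nr3c1, Nr3c2, Sgk1, Crh and Crhr1, whose spread was not above both estimates of counting error.

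Among 18 further genes known to be induced by glucocorticoids, 17 had a mean of at least 1 FPKM, and library 2 was the highest for 11 of 17 and at least 1.2 times both others for 6. These shares, 64.7% and 35.3%, stand beside 32.5% and 11.5% over all genes. Library 1 was lowest for 12 of 17, or 70.6%, beside 32.6% over all genes. The median difference of a library from the mean of the others, on the log2(FPKM + 1) scale, was -0.39 in library 1, 0.23 in library 2 and 0.09 in library 3, and 0.02, 0.00 and -0.01 over all genes. Library 2 was also highest for 66.7% of steroid supply genes and 57.1% of interneuron markers, but for 0% of chaperones and 9.09% of coregulators. Library 1 was also lowest for 66.7% of oligodendrocyte and 60% of microglia and endothelium markers, but for 8.33% of chaperones and 9.09% of coregulators. These orders are thus not particular to the glucocorticoid-induced list.

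The metallothionein genes Mt1 and Mt2, which bind zinc and copper, led this list. Mt1 had 707.41, 945.5 and 923.13 FPKM, and Mt2 599.84, 814.1 and 772.47 FPKM, both low in library 1. Fam107a, an actin-associated gene that is induced by stress, had 124.6, 194.2 and 139.49 FPKM, high in library 2. Named after their values were seen, the sulfotransferase gene Sult1a1 had 7.64, 17.95 and 8.62 FPKM and the transcription factor gene Zbtb16 had 3.20, 6.03 and 4.69 FPKM, both lowest in library 1 and highest in library 2, as Fkbp5 and Tsc22d3 were. Per1 and Dusp1 had another order, with 5.95, 6.92 and 11.09 FPKM for Per1 and 4.81, 5.67 and 7.74 FPKM for Dusp1, both highest in library 3.

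Beside these values, choroid plexus markers were lowest in library 1 in 5 of 5 cases, by a median of -0.74 on the log2(FPKM + 1) scale. Astrocyte markers summed to 740, 839 and 840 FPKM and were lowest in library 1 in 4 of 5, with Aldh1l1 highest there. Gfap differed most, at 191.63, 256.89 and 254.99 FPKM, whereas Aqp4 had 64.23, 66.08 and 66.19 FPKM. Of the 6 immediate early genes tested, 5 were highest in library 3 and 1 in library 2. What part cell makeup, time of day or handling had in the differences between libraries was not tested, and 1 library of each pattern gives no replicate check.

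**Figure D4:**
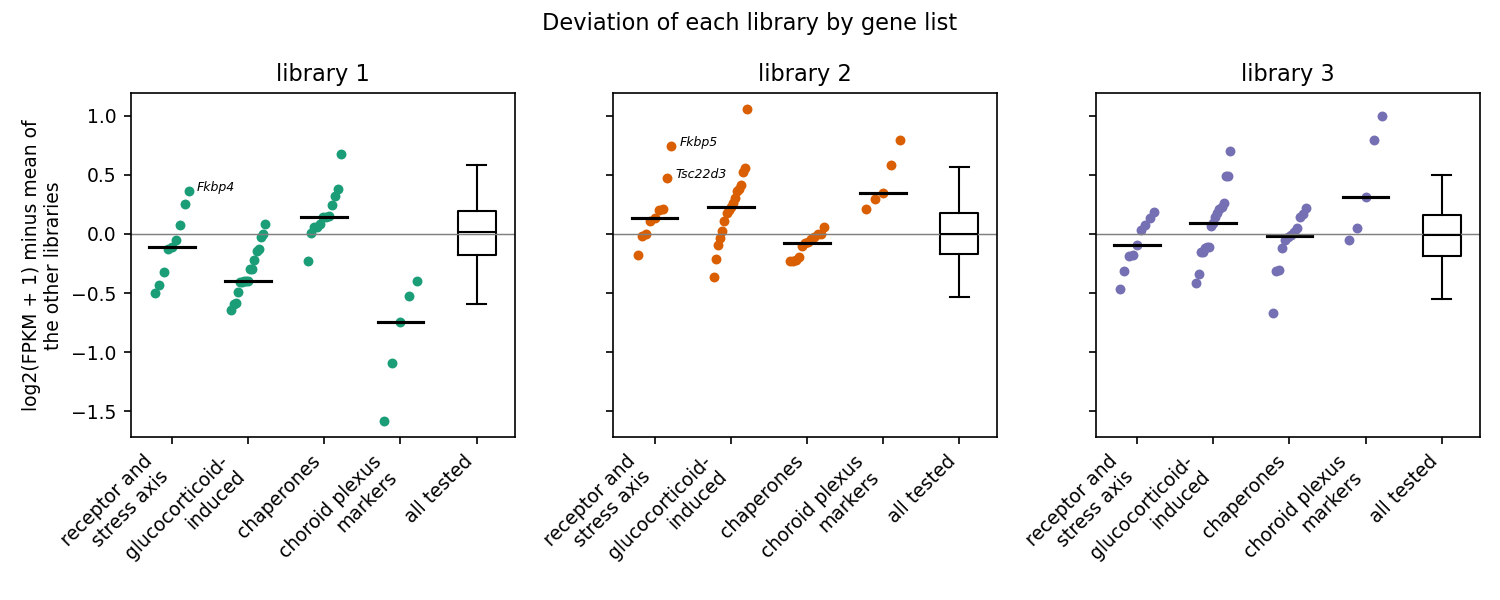
Difference of each library from the mean of the other libraries in log2(FPKM + 1) (vertical axis), in 1 panel per library, for the 9 receptor and stress axis genes, the glucocorticoid-induced list, the chaperone list and choroid plexus markers (horizontal axis); points are genes and bars their medians. The box gives all genes tested, with quartiles and whiskers from the 5th to the 95th percentile. The glucocorticoid-induced list sits low in library 1 (median -0.39) and high in library 2 (median 0.23).

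Against Nr3c1, 5 of the 17 glucocorticoid-induced genes were called higher by more than 2-fold and 1 lower, or 29.4% and 5.88%, beside 24.4% and 23.6% of all genes. The lower one, Nedd9, a scaffold gene of cell adhesion (limma adjusted p = 0.0477), was not called without library 1 or without library 3. Mt1 was 6.16 log2 units above Nr3c1 (SE 0.143), Mt2 5.92 (SE 0.142) and Fam107a 3.66 (SE 0.148, limma adjusted p = 1.06e-05).

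Chaperones and cochaperones of the receptor complex were abundant. Of 12 genes, 11 were called higher than Nr3c1 by more than 2-fold, beside 24.4% of all genes, and Dnajb1, a heat shock cochaperone gene at 19.05, 18.15 and 18.46 FPKM, was not called. Hspa8, the constitutive HSP70 gene, was at 792.06, 684.68 and 812.29 FPKM. The HSP90 genes Hsp90ab1 and Hsp90aa1, whose products hold the receptor ready for hormone, were at 695.13, 560.93 and 613.86 FPKM and at 549.57, 401.44 and 294.44 FPKM. Reads of these 3 genes can be shared with near-identical copies, which makes their values uncertain. Library 1 was highest for 9 of 12, as it was for Fkbp4, beside 36.3% of all genes. It was at least 1.2 times both others for 2 of 12, or 16.7%, near the 12.6% of all genes. The median difference of library 1 was 0.14 on the log2(FPKM + 1) scale.

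Receptor coregulators were less abundant than the chaperones. Of 11 genes, 1 was called higher than Nr3c1, 3 lower (Ncoa3, Crebbp and Nrip1) and 7 were not called. These shares, 9.09% higher and 27.3% lower, stand beside 24.4% and 23.6% of all genes. The lower share was thus near that of all genes. Without library 2, 1 of the 11 was called lower. The higher one was Ncor1, a corepressor gene, at 57.32, 40.96 and 31.56 FPKM, 1.85 log2 units above Nr3c1 (SE 0.157, limma adjusted p = 0.0022). Smarca4, a chromatin remodelling ATPase gene, had 17.25, 14.88 and 19.33 FPKM. In contrast to Ncor1, which was highest in library 1, Smarca4 was highest in library 3.

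Of the sodium transport genes that the mineralocorticoid receptor acts on in kidney, a pump subunit gene was abundant and the genes of the epithelial channel low. The sodium pump gene Atp1b1 was at 782 ± 71.9 FPKM, and Nedd4l, a ubiquitin ligase gene of the channel, at 28.9 ± 3.53 FPKM. Both genes were called higher than Nr3c1, and the channel subunit gene Scnn1a, at 1.08, 1.66 and 0.83 FPKM, was called lower. The call of Nedd4l (1.32 log2 units, limma adjusted p = 0.0456) was lost without library 1 (adjusted p = 0.183) or library 3 (adjusted p = 0.145). The other subunit genes, Scnn1b at 0, 0.11 and 0.08 FPKM and Scnn1g at 0.10, 0 and 0 FPKM, rested on few or no fragments.

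Apart from Crhbp, which had a mean of 22 FPKM, other peptides and receptors of the stress axis were low or listed at 0. Of 12 genes, 6 were listed at 0 in all libraries, namely Ucn, Ucn3, Avp, Avpr1b, Oxt and Mc2r. Crhbp was the highest, and after it came Pomc, the precursor gene of the pituitary hormone that drives the adrenal, at 1.5, 3.96 and 2.57 FPKM, and Oxtr, the oxytocin receptor gene, at 2.17, 2.25 and 1.84 FPKM. Pomc and Oxtr were called lower than Nr3c1, 2 of the 3 tested, beside 23.6% of all genes. Crhr2, the second receptor of the family, had 0.56, 0.47 and 0.66 FPKM, so that Crhr1 was 6.72 ± 1.58 times Crhr2 (SD, n = 3). This ratio is uncertain, since 3 fragments on a transcript of 2 kb corresponded to 0.465, 0.41 and 0.29 FPKM.

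Genes of steroid supply were low as well, and 5 of the 6 tested were called lower than Nr3c1, beside 23.6% of all genes. The exception was Srd5a1, the gene of a reductase that clears steroids and serves neurosteroid synthesis, at 8.89, 12.78 and 9.95 FPKM. Abcb1a and Abcb1b, which encode drug exporters that carry glucocorticoids out of cells, were at 3.40 ± 0.431 and 1.79 ± 0.503 FPKM. The call of Abcb1a (-1.44 log2 units, limma adjusted p = 0.014) was lost without library 1 (adjusted p = 0.0861). Of the adrenal synthesis genes, Hsd3b1, Cyp17a1, Cyp21a1 and Cyp11b2 were listed at 0 in all 3 libraries, and Cyp11b1 at 0, 0 and 0.06 FPKM. Star, at 1.21, 1.51 and 1.06 FPKM, and Cyp11a1, at 1.01, 0.51 and 1.68 FPKM, were low but above 0. Both were called lower than Nr3c1.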

How the data were processed

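The authors deposited 1 table of FPKM values, a column for each library, per the file headers. The submitters' processing notes name Bowtie2 and the build GRCm38 (mm10); the counting tool, annotation and versions: not given in the sources used here. The number in a sample's title gave its column. Values were used as deposited, on the scale log2(FPKM + 1), which understates differences of low genes. Genes whose mean reached 1 FPKM were each compared with a second gene inside each library by limma 3.58.1 (R 4.3.3), as the mean difference with a null of up to 1 log2 unit (treat), two-sided, Benjamini-Hochberg adjusted over all genes, called at adjusted p under 0.05. The same second gene enters every difference, so these tests are not independent. The moderation in limma draws the variance of each gene toward that of all genes. The procedure was tested on simulated data. Of 5 preset pairs, 4 could be tested. Python 3.11.15, numpy 2.4.6, pandas 2.3.3 and matplotlib 3.10.9 were used.

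Depth was estimated from genes with 1 transcript of at least 800 bases (GENCODE M21): the worth of 1 fragment was chosen so that low values came out as whole fragments, within 0.15 for 92.8%, 92.2% and 90.6% of values up to 4 fragments, where evenly spread values would give 30%. Fragment numbers cover counting error only. Alternatives were another pseudocount, filter, null or scaling and leaving out each library. The genes, 6 pathway lists and 13 marker lists were chosen with earlier results of these data known. Named genes were the 10, the 3 highest of each pathway list (some are not reported here), the 3 closest to Nr3c1 in level, and others said to be named after their values were seen or standing in a count.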

Additional observations from a re-analysis of the deposited data

How the results depend on the processing

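Of 531 values recomputed for 63 results, 480 kept their direction and their side of the threshold or stayed within 1.5 times. Part of this number was fixed in advance: a filter or null does not alter a log2 difference, and Nr3c1 and Nr3c2 were counted in both directions. Results called in neither setting also count as kept. With a null of no difference, Nr3c1 minus Nr3c2 (-0.53) and Sgk1 minus Tsc22d3 (-0.92) passed the test. Crh minus Crhr1 turned to -0.11 without library 1, and ran from -0.11 to 0.30 when each library was left out. The number of genes lower than Nr3c1, 1 in the report, was 2 with a pseudocount of 0.5 or 0.1, with a null of no difference and with TPM scaling, was 0 of 6 with a mean of at least 5 FPKM (limma; Crh and Crhr1 were then not tested), and ran from 0 to 1 when a library was left out. The median coefficient of variation, 15.4%, ran from 9.11% to 10.6% with 1 library left out, which rests on 2 libraries. Srd5a1 minus Nr3c1, not called, turned to 0.07 without library 1 and ran from -0.16 to 0.07 when each library was left out. Alternatives for pathway lists were added after the data were seen. With a null of no difference, 7 of 17 glucocorticoid-induced genes and 6 of 11 coregulators were lower than Nr3c1, beside 44.3% of all genes, and with no filter 5 of 6 peptide and receptor genes of the stress axis were, beside 47% of all genes. Fkbp5 minus Fkbp4 kept its call in all alternatives, from -1.60 to -2.18 over the left-out libraries. With TPM scaling 42.2% of all genes were highest in library 1 and 29.8% in library 2; the glucocorticoid-induced genes highest in library 2 remained 11 in number and the chaperones highest in library 1 were 10, a check added after the data were seen. No paired analysis was possible because the labels give 1 group. Hsd11b1 minus Hsd11b2 was not run because Hsd11b2 was listed at 0. Depth limits Crh, Crhr1 and the genes under 1 FPKM.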
